A study of Mus musculus with 28 samples.

Results

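Immediate early genes are the first genes that a stimulated cell switches on, and 10 of them, called the members here, were followed through 28 RNA-seq libraries of developing mouse rods: Fos, Fosb, Jun, Junb, Jund, Egr1, Ier2, Ier3, Nr4a1 and Csrnp1. The members, genes known to respond to stimulation and to tissue dissociation, were picked with earlier results of these data known and were found by gene symbol among 45594 genes in the deposited gene table. All 10 members were matched, and all 10 passed the filter on low counts that left 18608 genes for testing. In GRCm38 coordinates Fos lies at chr12:85473890-85477273, Fosb at chr7:19302696-19310051, Jun at chr4:95049034-95052222 and Junb at chr8:84976909-84978748. Jund lies at chr8:70697739-70700616, Ier2 at chr8:84661331-84662852 and Ier3 at chr17:35821684-35822923. Nr4a1 lies at chr15:101266846-101274792, Csrnp1 at chr9:119971166-119977250 and Egr1 on chromosome 18. All are protein-coding.

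The rods were sorted by flow cytometry through green fluorescent protein, which a transgene (TgNrlp-GFP) expresses from the promoter of Nrl, a rod transcription factor gene. Every mouse carried this transgene. The mutant mice were also homozygous for rd1 (Pde6b rd1/rd1). This allele disrupts a catalytic subunit of the phosphodiesterase that rods use in phototransduction, and photoreceptors that lack it are lost in the first postnatal weeks. The mice that carried the transgene without rd1 are called WT. Retinas were digested with papain before sorting, on postnatal day 2, 4, 6, 8 or 10, written P2 to P10. The rd1 mice gave 2 libraries at P2, P4 and P10, 3 at P6 and 4 at P8. The WT mice gave 2 at P2 and P8, 3 at P4, and 4 at P6 and P10. Whether a library came from 1 animal or from several is not given in the sources used here, so p-values measure the spread between these libraries, which may be technical.

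As background, immediate early genes need no newly made protein to be transcribed. Signals that open calcium channels or switch on MAP kinases act on transcription factors already bound at their promoters, among them SRF with its partners and CREB. The Fos and Jun proteins pair to form AP-1, Egr1 is a zinc-finger transcription factor, and Nr4a1 is an orphan nuclear receptor. The same genes answer neuronal activity, injury and stress, and they are also induced when tissue is digested with enzymes and sorted, so in sorted cells their RNA can record handling as well as the state of the tissue.

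Depth and genotype moved together in the series at 4 ages. All 9 rd1 libraries from ages other than P8 were deep, at 15980188 to 21363610 counts, and the other 19 libraries ranged from 11103460 to 14995501. Gm42418, a transcript that overlaps ribosomal RNA sequence, stood at 92.7 to 292 CPM (a gene's count scaled to a common library total) in those 9 libraries and at 1.36 to 45.8 CPM in 18 of the others. The exception was P6 WT replicate 1, at 319 CPM. Only at P8 did both genotypes come from the same range of depth. Replicates 1 and 3 of P6 rd1 differed by little more than sampling noise (a chi-square of 1.71 per degree of freedom, where the other 28 replicate pairs gave 6.55 to 157), so they were averaged and counted as 1 sample, which leaves 27. The rod genes Nrl and Nr2e3 stood at 1575 to 3049 and 1967 to 3519 CPM in every library, so the sorted cells carried the markers of their label, while the pigment epithelium gene Rpe65 was at 0 in 10 libraries.

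Fos, a member of the AP-1 family, was high in every rd1 library outside P8 and low in most WT libraries. At P2 it stood at 17.0 and 6.39 CPM in WT and at 149.7 and 145 CPM in rd1. At P4 it stood at 5.02, 359.9 and 33.4 CPM in WT and at 472 and 420.0 CPM in rd1. At P6 it stood at 270.0, 11.3, 40.65 and 21.0 CPM in WT and at 247, 278 and 232.5 CPM in rd1. These values do not overlap between the genotypes at P2 and P4, and at P6 they overlap through P6 WT replicate 1 alone. At P8 the WT libraries held 17.1 and 23.0 CPM and the rd1 libraries 27.7, 46.0, 19.5 and 47.3 CPM. At P10 the WT libraries held 26.6, 54.3, 38.5 and 515 CPM and the rd1 libraries 490.2 and 736 CPM. P8 rd1 thus stayed within the range of ordinary WT libraries, and P10 WT replicate 5 reached the level of P10 rd1.

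Of the 15 WT libraries, 3 therefore had Fos at mutant levels: P4 replicate 2, P6 replicate 1 and P10 replicate 5. Fosb, a paralogue of Fos, followed it closely in them. It stood at 292, 65.4 and 174 CPM in those libraries, in that order, and at 0.647 to 6.78 CPM in the other 12 WT libraries. In rd1 it stood at 68.9 and 93.1 CPM at P2, at 176 and 228.5 CPM at P4, at 59.7, 70.4 and 65.1 CPM at P6, and at 289 and 419 CPM at P10. At P8 the rd1 libraries held 6.03, 11.7, 9.45 and 11.3 CPM, all above the P8 WT libraries at 2.95 and 3.22 CPM. Fosb thus ran from under 1 CPM to over 400 CPM across the series, the widest relative span of the members.

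The sequences just upstream of the start sites are shown because Fos, Fosb and Nr4a1 come up below in different patterns, with Junb as a member of the Jun family. RefSeq held a promoter for 8 of the 10 members. The bases shown lie before the annotated start (GRCm38.p6), and capitals mark matches, on either strand, to a TATA box (TATAAA, on the gene's strand only), the core of the CRE that CREB binds (TGACG), a GC box (GGGCGG) or an EGR site (GCGGGGGCG). The Fos sequence is chr12:85473640-85473889 on the plus strand.
Fos: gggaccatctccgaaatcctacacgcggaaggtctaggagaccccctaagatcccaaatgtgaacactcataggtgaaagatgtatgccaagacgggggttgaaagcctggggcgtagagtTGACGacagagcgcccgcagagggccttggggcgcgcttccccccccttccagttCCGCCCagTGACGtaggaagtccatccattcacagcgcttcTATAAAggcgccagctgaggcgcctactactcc
The Fosb sequence is chr7:19310052-19310295 on the minus strand.
Fosb: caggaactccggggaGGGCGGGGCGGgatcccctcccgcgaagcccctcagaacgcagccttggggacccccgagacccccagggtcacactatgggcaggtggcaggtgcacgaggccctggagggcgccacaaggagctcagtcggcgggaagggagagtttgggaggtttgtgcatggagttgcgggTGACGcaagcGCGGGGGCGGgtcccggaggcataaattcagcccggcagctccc
The Junb sequence is chr8:84978749-84978998 on the minus strand.
Junb: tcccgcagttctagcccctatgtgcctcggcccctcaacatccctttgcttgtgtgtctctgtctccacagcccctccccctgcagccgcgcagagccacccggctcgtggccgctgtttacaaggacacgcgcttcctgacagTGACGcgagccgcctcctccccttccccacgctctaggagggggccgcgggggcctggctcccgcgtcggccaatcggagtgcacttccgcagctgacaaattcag
The Nr4a1 sequence is chr15:101266596-101266845 on the plus strand.
Nr4a1: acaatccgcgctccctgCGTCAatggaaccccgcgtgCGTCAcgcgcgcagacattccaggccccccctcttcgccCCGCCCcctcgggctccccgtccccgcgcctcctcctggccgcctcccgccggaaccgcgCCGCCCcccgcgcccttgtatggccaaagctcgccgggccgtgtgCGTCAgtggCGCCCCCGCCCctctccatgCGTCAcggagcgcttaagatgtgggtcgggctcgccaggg

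The Fos window held CRE cores at -129 and -66 from the start, a GC box at -74 and a TATA box at -33. Fosb held 1 CRE core at -54, an EGR site at -44 that overlaps a GC box, and 2 overlapping GC boxes farther upstream. Junb held 1 CRE core, at -106. Nr4a1 held 4 CRE cores, at -233, -213, -69 and -40, with an EGR site at -60 that overlaps 1 of its 3 GC boxes. The window of Jun, which is not shown, was searched too and held a GC box at -89 but no CRE core, TATA box or EGR site. The CRE core was found in 17.8% of 32851 RefSeq windows, the TATA box in 7.59%, the GC box in 32.7% and the EGR site in 2.57%. An AP-1 site (TGANTCA, in 6.75% of windows) and a CArG box, the sequence that SRF binds (in 1.47%), were searched as well. These letters were not in the 4 windows shown or in that of Jun. The windows reach at most 250 bases before the start, and sequence farther upstream was not searched. Each match is a description of letters, and the expression tables do not bear on binding.

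The Jun family differed from Fos in the same libraries. Jund, the Jun protein gene that resting cells also express, stood at 37.4 and 89.6 CPM in WT and 284 and 351 CPM in rd1 at P2. The P4 libraries held 46.9, 96.4 and 81.1 CPM in WT against 382 and 345 CPM in rd1, and the P6 libraries 182, 44.96, 40.0 and 31.8 CPM in WT against 230.4, 182.5 and 241 CPM in rd1. At P10 it stood at 23.4, 17.7, 22.85 and 26.35 CPM in WT and 164 and 149 CPM in rd1. The genotypes do not overlap at P2, P4, P6 or P10, where 21.2%, 18.1%, 11.4% and 17.1% of all genes likewise lay higher in every rd1 sample. At P6 the margin is narrow, 182.4 CPM in WT replicate 1 against 182.5 CPM in rd1 replicate 2. Jund was not called at P6 (edgeR adjusted p = 0.116). At P8 the genotypes overlap, with 28.9 and 48.1 CPM in WT and 33.1, 43.5, 33.2 and 36.0 CPM in rd1.

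Junb, a Jun protein gene that is itself induced by growth factors, repeated that pattern at a lower level. The rd1 libraries held 51.3 and 77.1 CPM at P2, 56.0 and 63.9 CPM at P4, 47.7, 32.1 and 51.1 CPM at P6, and 70.3 and 78.9 CPM at P10. In WT it stood at 1.97 to 12.9 CPM in 14 libraries and at 43.1 CPM in P6 replicate 1. P8 rd1 held 5.13, 9.81, 4.52 and 7.50 CPM, beside 8.89 and 8.13 CPM in P8 WT. Jun, the partner that gave AP-1 its best-known pair, stood at 235 to 633 CPM in rd1 outside P8 and at 67.4 to 97.6 CPM at P8, where WT held 102 and 132.5 CPM. In WT outside P8 it stood at 33.5 to 174 CPM, apart from 259 CPM in P4 replicate 2 and 321 CPM in P6 replicate 1.

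The 3 WT libraries with high Fos were not alike in the Jun genes. P6 WT replicate 1 carried the whole set, with Junb at 43.1, Jund at 182 and Ier2 at 79.8 CPM. P4 WT replicate 2 held Junb at 12.9 and Jund at 96.4 CPM, and P10 WT replicate 5 held Junb at 9.31 and Jund at 26.4 CPM. Jun itself was high in P6 WT replicate 1 (321 CPM) and P4 WT replicate 2 (259 CPM), and stood at 66.2 CPM in P10 WT replicate 5. The ratio of Junb to Fos was 0.160 in the first library, 0.0359 in the second and 0.0181 in the third, which are the lowest ratios of the 28 libraries for the last pair. In rd1 the ratio ran from 0.107 to 0.531. P6 WT replicate 1 was also the WT library with the highest Gm42418, and it had the most detected genes, 27793 against 22299 to 24862 in the others.

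**Figure D1:**
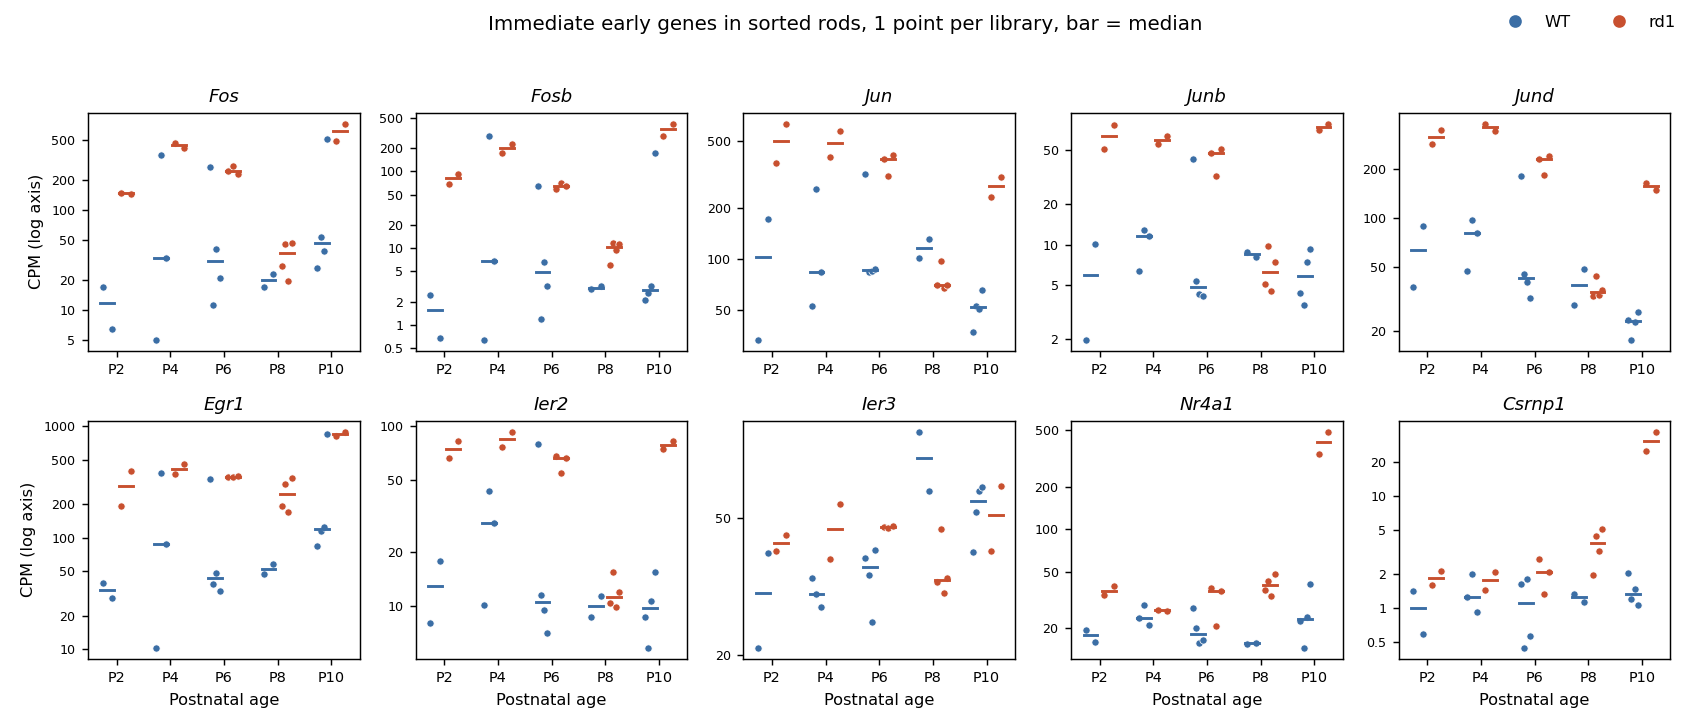
CPM of each member (vertical, log axis) by postnatal age (horizontal), with 1 point per library and a bar at the group median; WT is blue and rd1 red. Outside P8 the rd1 libraries lie above most WT libraries for Fos, Fosb and the Jun genes, P8 rd1 lies low, and Nr4a1 and Csrnp1 are highest in P10 rd1, at 342 and 490.3 CPM for Nr4a1.

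Egr1, which is often read together with Fos, kept a raised level in P8 rd1. The P8 rd1 libraries held 190.1, 299, 169 and 338 CPM, and the P8 WT libraries 46.9 and 58.2 CPM, with no overlap. In rd1 it stood at 193 and 393 CPM at P2, at 368 and 452 CPM at P4, at 347, 349.8 and 356 CPM at P6, and at 805 and 888 CPM at P10. In WT it stood at 10.3 to 125 CPM in 12 libraries, and at 379, 334 and 854 CPM in P4 replicate 2, P6 replicate 1 and P10 replicate 5. The ratio of Egr1 to Fos was 6.51 to 8.66 in the 4 P8 rd1 libraries and 0.779 to 4.53 in the other 24, so these 4 libraries lie apart from all the rest.

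Ier2, which encodes a small nuclear protein, behaved as the Jun genes did. It stood at 55.2 to 93.0 CPM in the rd1 libraries outside P8 and at 9.87 to 15.4 CPM in P8 rd1. In WT the highest value was 79.8 CPM, in P6 replicate 1, and the next were 43.7 and 29.0 CPM, both at P4. P10 WT replicate 5, with Fos at 515 CPM, held only 15.4 CPM of Ier2.

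Nr4a1 and Csrnp1 stood apart from the other members in when they were high. Nr4a1 stood at 342 and 490.3 CPM in P10 rd1 and at 22.2, 14.4, 24.0 and 40.6 CPM in P10 WT. At no other age did an rd1 library exceed 48.4 CPM. Csrnp1, which encodes a nuclear protein rich in cysteine and serine, stood at 25.02 and 37.4 CPM in P10 rd1 and at 2.06, 1.203, 1.47 and 1.07 CPM in P10 WT. These CPM values rest on 535 and 641 counts in rd1 and on 14.1 to 26.6 counts in WT. At P8 both genes were higher in all 4 rd1 libraries than in WT, as were 16.7% of all genes. Nr4a1 stood there at 37.0, 42.9, 33.4 and 48.4 CPM against 15.3 and 15.7 CPM. Csrnp1 stood at 1.98, 4.42, 3.20 and 5.03 CPM against 1.34 and 1.13 CPM. Both were also higher in every rd1 library at P2, as were 21.2% of all genes. Nr4a1 at P2 stood at 33.9 and 39.5 CPM against 19.5 and 15.9 CPM. At P4 and P6 the genotypes overlapped for both genes.

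Ier3, a gene with roles in cell survival, varied least. All 28 libraries lay between 20.9 and 89.0 CPM. The highest value belonged to P8 WT replicate 1 (89.0 CPM), followed by P10 rd1 replicate 2 (61.7 CPM). P8 WT replicate 2 held 59.9 CPM, and the 4 P8 rd1 libraries held 32.7, 46.3, 30.3 and 33.5 CPM.

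Levels of different members can be set side by side only per length, as CPM per kilobase of transcript. On that scale the highest mean level in P10 rd1 was that of Fos (322), followed by Egr1 (267) and Nr4a1 (158), and the lowest that of Csrnp1 (10.2). In P2 rd1 the order was different, with Jun (149), Jund (99.9), Egr1 (89.9) and Fos (75.2) on top and Nr4a1 at 13.6. In P8 WT the highest was Ier3 (61.9), followed by Jun (34.0), while Fos stood at 9.94. Fos stood at 256 and 387 and Egr1 at 253.5 and 279.6 in the 2 P10 rd1 libraries, so these neighbours overlap and their order is not resolved.

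Averaged over ages, rd1 rods held more RNA of 9 of the 10 members. The average is not a result at every age: at P8 the fold change was positive for 6 of 10, with a median of 0.48. At the other ages every rd1 library was deeper than every WT library, so genotype and depth cannot be told apart there. With each age given equal weight, edgeR's quasi-likelihood test called 9 members higher and none lower, where 12.9% of all genes tested were called higher and 10.6% lower. In the order of their roles, the log2 fold changes were 1.95 ± 0.59 (SE) for Fos and 2.60 ± 0.81 for Fosb. They were 1.46 ± 0.28 for Jun, 2.15 ± 0.35 for Junb and 1.77 ± 0.24 for Jund. Egr1 rose by 1.97 ± 0.49, Ier2 by 1.71 ± 0.33, Nr4a1 by 1.44 ± 0.16 and Csrnp1 by 1.63 ± 0.23. Ier3 gave 0.09 ± 0.13 (adjusted p = 0.662). The adjusted p-values of the 9 ran from 5.24e-07 (Nr4a1) to 0.0231 (Fosb). The median over the 10 members was 1.74, beside -0.01 over all genes tested. Markers of other cells were also called in this comparison: 4 of 8 for Müller glia, 3 of 8 for progenitors and 1 of 10 for microglia were higher, and 4 of 9 for vessels, 3 of 10 for amacrine and horizontal cells and 2 of the 4 tested for pigment epithelium were lower. Of the other lists, rod markers had 2 of 9 higher, ganglion cells 1 of 7 and astrocytes 1 of 4 lower, cones 1 of 6 in each direction, and bipolar and erythroid cells 0 called. The summed Müller glia markers ranged from 427 to 1087 CPM in rd1 and from 268 to 1180 CPM in WT, and those of vessels from 103 to 409 CPM and from 52.4 to 463 CPM. Their part in the members' differences was not tested.

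The calls for Fos and Fosb were the least firm of these. The adjusted p of Fos was 0.0198 and rose to 0.0512 without P2 WT replicate 2 and to 0.0522 without P8 WT replicate 1. That of Fosb passed the threshold by little and lay between 0.0598 and 0.0608 without any 1 of the 4 WT libraries of P2 and P8. In bulk samples a higher level per cell and a larger share of cells with the RNA cannot be told apart.

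At single ages fewer members passed. At P2, 2 of 10 were called higher, Junb (3.42 ± 0.92, adjusted p = 0.0457) and Jund (2.34 ± 0.60, adjusted p = 0.0368), where 2.81% of all genes were called in either direction. At P4 only Jund was (2.31 ± 0.52, adjusted p = 0.0150), with 1.61% of all genes. At P6 no member was called by edgeR, with 1.46% of all genes called higher, and Jun, Junb and Jund were the 3 members with an unadjusted p under 0.05. DESeq2 also called none there, but it gave no adjusted p for Fos, Fosb and Junb. The fold changes of the members were positive for all 10 at P2, P4 and P6, with medians of 2.45, 1.53 and 1.39, beside 0.02, 0.00 and -0.01 over all genes.

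These counts moved with the filter and with single libraries. With no filter on low counts, 7 members were called at P2, 4 at P4 and 1 at P6, and with GC-centred offsets 0 were at P2. The call for Junb at P2 was lost in 20 of 27 fits that leave out 1 library, with adjusted p up to 0.399 without P2 WT replicate 1, and that of Jund at P2 without P2 rd1 replicate 1, P2 rd1 replicate 2 or P2 WT replicate 1. Jund at P4 was lost without either rd1 library of that age or without WT replicate 1 or 3, with adjusted p up to 0.0929. Without P6 WT replicate 1, 5 members were called at P6: Jun (2.13), Junb (3.21), Jund (2.49), Egr1 (3.21) and Ier2 (2.78), with adjusted p from 2.13e-05 to 0.0485.

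Counted by overlap alone, every P2 rd1 sample exceeded every WT sample for all 10 members (21.2% of all genes), and at P4 for 6 (18.1%). At P6 this held for 3 members (11.4% of all genes), in P8 samples for 4 (16.7%) and in P10 samples for 7 (17.1%). The 3 at P6 were Jund (182.5 against 182.4 CPM at its closest), Egr1 and Ier3. The 4 at P8 were Fosb, Egr1, Nr4a1 and Csrnp1. At P8 2 members, Jun and Ier3, lay lower in every rd1 library, as did 14.4% of all genes.

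**Figure D2:**
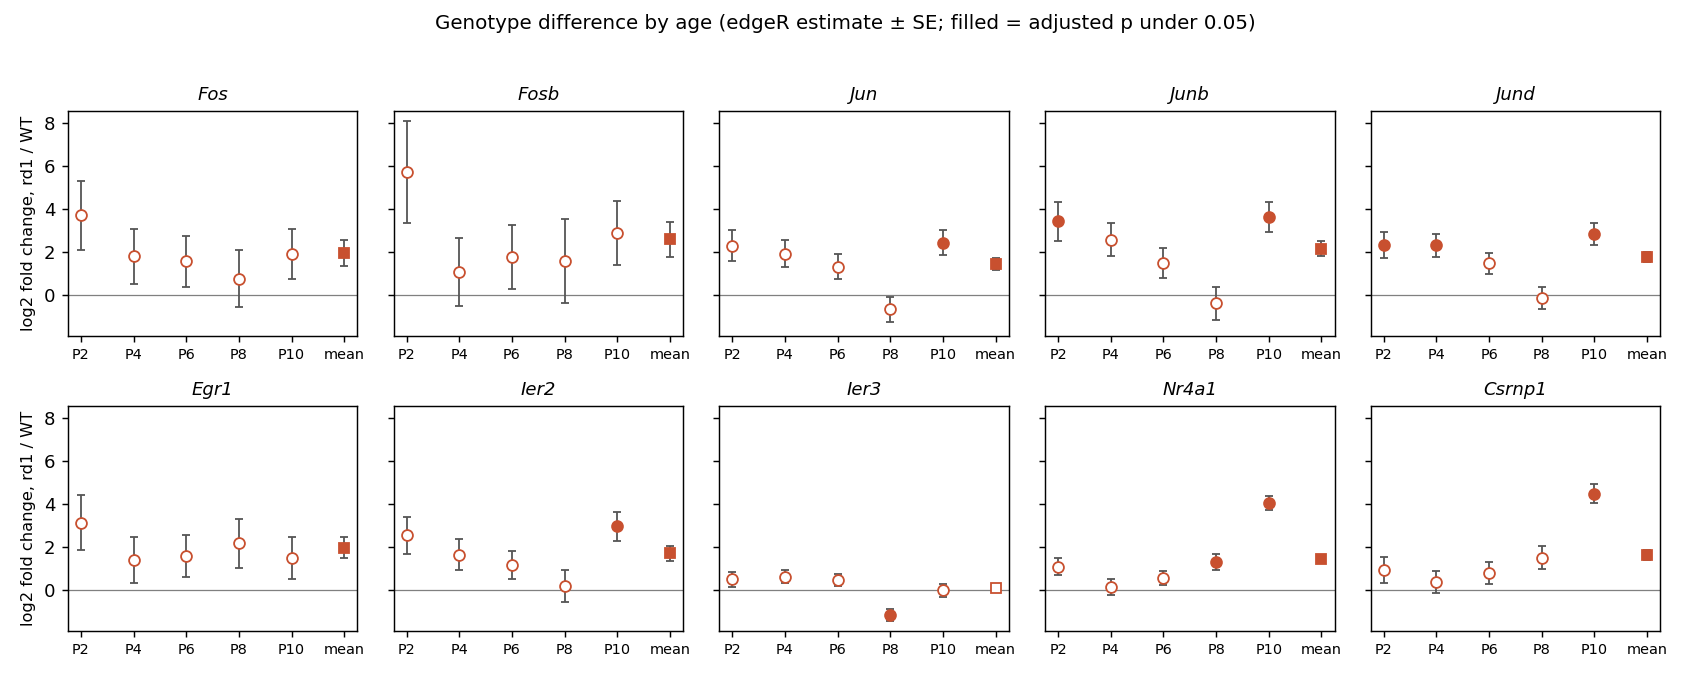
Log2 fold change of rd1 over WT (vertical, edgeR estimate with SE) for each member at each age and averaged over ages (horizontal, square); filled symbols have an adjusted p under 0.05. At P10 6 members are filled, where Nr4a1 reaches 4.08 and Csrnp1 4.50, and the Jun genes fall to or below 0 at P8.

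P8 was the age at which the genotypes differed least in the Jun genes. In log2 units the difference was -0.67 ± 0.59 for Jun, -0.39 ± 0.76 for Junb, -0.13 ± 0.51 for Jund, 0.19 ± 0.73 for Ier2 and 0.76 ± 1.31 for Fos, and none of these was called. Nr4a1 was the 1 member called higher (1.32 ± 0.36, adjusted p = 0.0420), where 1.18% of all genes were. Ier3 was the 1 called lower (-1.14 ± 0.28, adjusted p = 0.0216), where 2.52% were. Csrnp1 (1.51 ± 0.53, adjusted p = 0.117) and Egr1 (2.19 ± 1.14, adjusted p = 0.315) did not pass. The call for Nr4a1 was lost in 9 of the 27 fits without 1 library, with adjusted p up to 0.379 without P8 WT replicate 1. That for Ier3 was lost in 4, those without P8 rd1 replicate 1, 3 or 4 and that without P8 WT replicate 1, where the fold change was -0.74 (adjusted p = 0.596).

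The P8 difference was then compared directly with the mean of the differences at the other 4 ages. This contrast was added after the values had been seen. Jun (-2.66 ± 0.66), Junb (-3.17 ± 0.83), Jund (-2.37 ± 0.56) and Ier3 (-1.54 ± 0.32) had a lower rd1 to WT ratio at P8, with adjusted p from 0.00727 to 0.0221, where 6.56% of all genes were called lower. Ier2 (-1.90 ± 0.80, adjusted p = 0.126) and Fos (-1.48 ± 1.403, adjusted p = 0.514) did not pass, and Nr4a1 and Csrnp1 each gave -0.15. None of the 4 calls held without P8 WT replicate 1, with adjusted p from 0.103 to 0.173. Jun and Jund also missed it without P8 WT replicate 2, and Junb without P8 rd1 replicate 3 (adjusted p = 0.0513). P8 is also the age at which the genotypes shared 1 range of depth, 11103460 to 13839911 counts in rd1 and 12712570 and 13187377 in WT, and at which Gm42418 was at most 14.9 CPM. Age and this library class cannot be told apart here.

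P10 was the age with the most members called. Of the 10 members, 6 were called higher and none lower, where 7.81% of all genes were called higher and 4.83% lower. Csrnp1 rose by 4.50 ± 0.46 (adjusted p = 5.61e-07) and Nr4a1 by 4.08 ± 0.33 (adjusted p = 1.79e-08). Junb rose by 3.63 ± 0.71, Ier2 by 2.99 ± 0.67, Jund by 2.84 ± 0.49 and Jun by 2.44 ± 0.58, with adjusted p from 0.000594 to 0.00878. Fosb (2.89 ± 1.48, adjusted p = 0.211), Fos (1.91 ± 1.17, adjusted p = 0.304) and Egr1 (1.49 ± 0.97, adjusted p = 0.341) did not pass, and Ier3 stood at -0.01 ± 0.29.

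The result for those 3 genes turned on P10 WT replicate 5. Without it, Fos gave 4.07 (adjusted p = 0.0186), Fosb 7.18 (adjusted p = 0.00397) and Egr1 3.09 (adjusted p = 0.0258), and 9 members were called. Without P10 rd1 replicate 2, 4 were, since Jun (adjusted p = 0.122) and Ier2 (adjusted p = 0.0639) no longer passed. Nr4a1 and Csrnp1 passed in all 27 fits, with adjusted p of at most 1.11e-06 and 3.27e-05.

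Markers of other cells also moved at P10, and their part in these results was not tested. Of 10 microglia markers, 5 were called higher in rd1 (Aif1, C1qb, C1qc, Tmem119 and Tyrobp), with a median of 2.16 over the list. The summed level of the 10 was 55.4 and 105 CPM in P10 rd1 and 7.51 to 42.1 CPM in P10 WT. Of 8 Müller glia markers 3 were called higher (Apoe, Clu and Sox9), and of 9 vessel markers 3 were called lower (Pecam1, Rgs5 and Tek). P10 WT replicate 5 had the lowest sums of the P10 WT libraries for microglia (7.51 CPM), vessel (52.4 CPM) and Müller glia (268 CPM) markers. Among the microglia markers, Tmem119 was at 0 in 5 of the 28 libraries and C1qb in 1.

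Nr4a1 and Csrnp1 were the 2 members whose genotype difference depended on age in the test with 4 degrees of freedom (adjusted p = 0.000291 and 0.0113), where 1.02% of all genes passed. For Csrnp1 this was lost without P10 rd1 replicate 2 (adjusted p = 0.0905). In the contrast of P10 against the mean of the other ages, which was added after the values had been seen, they were again the 2 called, at 3.30 ± 0.36 for Nr4a1 and 3.59 ± 0.52 for Csrnp1, where 0.322% of all genes were called higher. Ier3 (adjusted p = 0.0697), Jund (0.106), Junb (0.130) and Jun (0.147) did not pass the age dependence test. Without P6 WT replicate 1 they did, together with Ier2, which makes 7 members.

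Within 1 genotype, age alone moved few members. In rd1, P10 over P2, only Csrnp1 (4.21 ± 0.59) and Nr4a1 (3.66 ± 0.42) rose, where 14.5% of all genes did. In WT, Egr1 (3.33 ± 1.22, adjusted p = 0.0399) and Ier3 (0.93 ± 0.30, adjusted p = 0.0195) were called higher, where 16.5% of all genes were, and Jund lower (-1.38 ± 0.49, adjusted p = 0.0352), where 16.8% were. Fos in WT missed the threshold narrowly (4.01 ± 1.55, adjusted p = 0.0510) and passed in 8 of 27 fits without 1 library, but stood at 1.84 (adjusted p = 0.268) without P10 WT replicate 5. The Egr1 value was 1.73 (adjusted p = 0.189) without P10 WT replicate 5, and its call was also lost without either P2 WT library. That of Ier3 was lost without P2 WT replicate 1 (adjusted p = 0.308), and that of Jund without P2 WT replicate 2 or without P10 WT replicate 2, 3 or 4. These 2 higher and 1 lower of 10 in WT are near the shares of all genes, as are the 2 higher and none lower in rd1.

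The level of Fos in a library was then used as a measure within groups, to ask which members went up and down with it once age and genotype were held fixed. Of the other 9 members, 3 had a positive slope that passed the threshold, where 0.129% of all genes did. Per doubling of Fos, Fosb changed by 1.46 ± 0.07 on the log2 scale (adjusted p = 2.75e-11), Egr1 by 0.81 ± 0.06 (adjusted p = 1.55e-08) and Ier2 by 0.44 ± 0.08 (adjusted p = 0.0295). Junb (0.38 ± 0.11), Jun (0.34 ± 0.08) and Jund (0.26 ± 0.07) had adjusted p from 0.121 to 0.261, Csrnp1 and Nr4a1 had slopes of 0.16, and Ier3 had 0.03 ± 0.05. The median of the 9 was 0.34, beside 0.00 over all genes.

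The slopes rest mainly on WT libraries, where Fos varied most within a group. Fit on WT alone, 2 members were called, and Ier2 had the same slope (0.44) but an adjusted p of 0.598. Fit on rd1 alone, no member and no gene was called, with slopes of 0.50 for Fosb and 0.72 for Egr1. The Ier2 call was lost in 5 of 27 fits, with a slope of 0.25 (adjusted p = 0.683) without P6 WT replicate 1. The slopes of Junb and Jund without that library were 0.15 and 0.11. Fosb and Egr1 passed in all 27 fits, at 1.35 to 1.52 and 0.76 to 0.86.

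**Figure D3:**
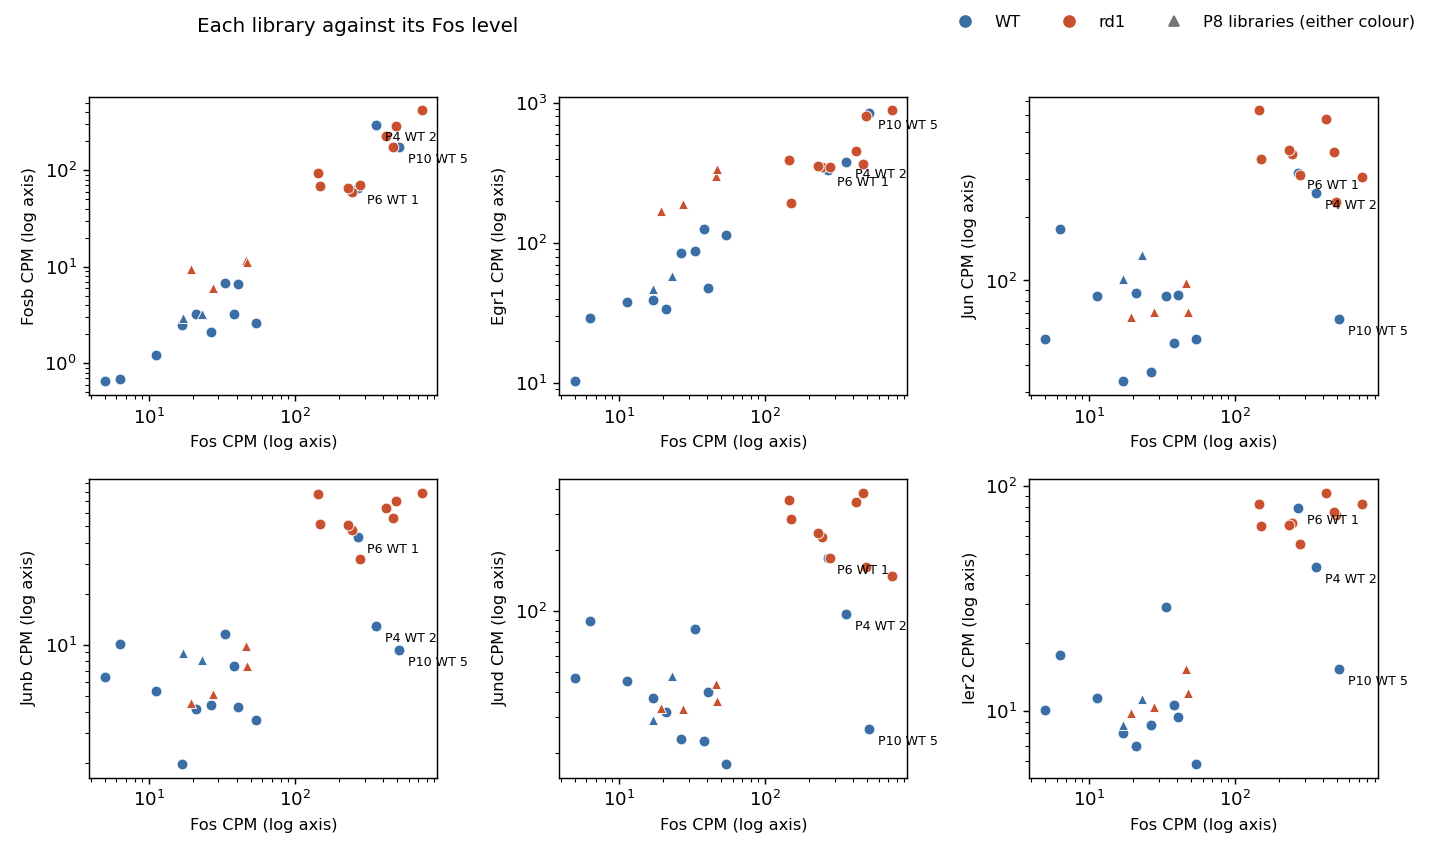
CPM of 6 members (vertical, log axis) against Fos (horizontal, log axis) in each of the 28 libraries; WT is blue, rd1 red, and triangles are P8 libraries. P8 rd1 holds more Egr1 (169 to 338 CPM) than the WT libraries of similar Fos, while P4 WT replicate 2 and P10 WT replicate 5 lie below the rd1 libraries of similar Fos for Junb and Jund.

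Seen from the other side, 3 of 9 members were called higher in rd1, averaged over ages, at equal Fos level, where 3.34% of all genes were. They were Csrnp1 (1.21 ± 0.34, adjusted p = 0.0312), Jund (1.11 ± 0.28, adjusted p = 0.0176) and Nr4a1 (1.03 ± 0.19, adjusted p = 0.00134). Junb kept a positive estimate of 1.19 ± 0.42 (adjusted p = 0.102), and Jun (0.63 ± 0.31) and Ier2 (0.67 ± 0.33) did not pass. The estimates for Egr1 and Fosb were 0.32 ± 0.21 and 0.23 ± 0.25, beside 1.97 and 2.60 without Fos in the fit. The slope of a gene and its estimate at equal Fos come from 1 fit, so the steeper slopes of Egr1 and Fosb and their smaller estimates are not separate results. At P2 and P4 every rd1 library held more Fos than every WT library. Equal Fos at those ages is therefore an extrapolation along 1 slope shared by both genotypes.

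The calls with Fos in the fit were not all stable. That of Csrnp1 was lost in 8 of 27 fits, with adjusted p up to 0.125 without P4 WT replicate 2. That of Jund was lost without P4 WT replicate 2 (adjusted p = 0.157) and without P10 WT replicate 5 (adjusted p = 0.0541). Nr4a1 passed in all 27, with adjusted p of at most 0.0303. Without P6 WT replicate 1, Junb (2.06) and Ier2 (1.35) passed as well.

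**Figure D4:**
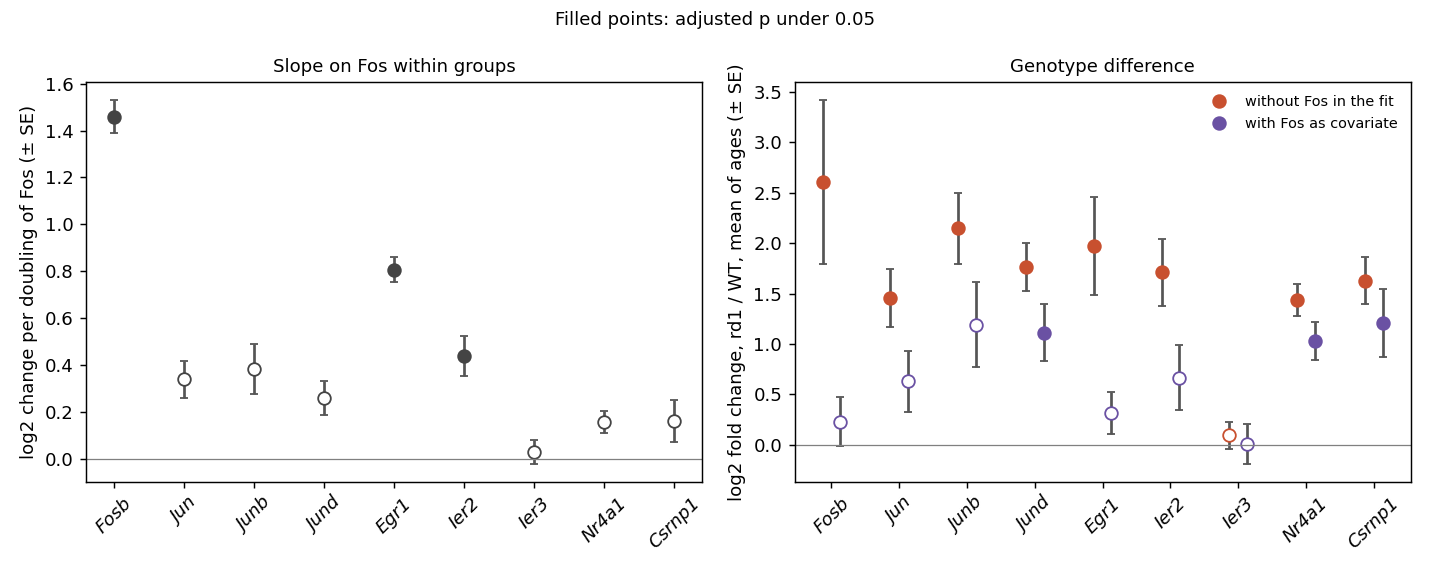
Left, the slope of 9 members on the Fos level within groups (vertical, log2 change per doubling of Fos, with SE); right, their log2 fold change of rd1 over WT averaged over ages, without Fos in the fit (red) and with it (purple), with SE. Filled points have an adjusted p under 0.05: Fosb, Egr1 and Ier2 on the left, and Jund, Nr4a1 and Csrnp1 with Fos in the fit on the right.

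Base composition differed among the members and moved with genotype over the whole transcriptome. Jund (67.1% GC), Junb (62.6%) and Ier2 (60.9%) belonged to the 1843 tested genes with a transcript GC of at least 57.6%, and the other 7 members had 51.9% to 57.3%. Among those genes, 37.9% of genes were called higher in rd1 on average over ages and 23.9% at P10, against 0.977% at P8. Exon number moved with genotype as well. Of 436 protein-coding genes with 1 exon, as Jun, Jund and Ier2 are, 25.5% were called higher on average, 19.5% at P10 and 5.96% at P2, against 13.6%, 8.14% and 1.2% of those with 2 or more exons. The part of either property in the members' differences with genotype was not tested beyond the GC alternative that follows. With the libraries centred on each other within bins of GC, an alternative chosen after the data were seen, Junb (2.98, adjusted p = 0.0602) and Jund (1.86, adjusted p = 0.0562) were no longer called at P2. The numbers of members called in the other genotype comparisons did not change by more than 1.5 times, but Csrnp1 at equal Fos missed the threshold (1.04, adjusted p = 0.0783).

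Genes outside the members that went with Fos were found by the same slope. By p, the first 8 with a positive slope and at least 3 in mean log2 CPM were Dusp1, Cyr61, Mex3c, Cdkn2aip, Pnrc1, Klf6, Fbxl14 and Srf. Cyr61, a secreted matrix protein gene, had a slope of 1.00 ± 0.16 (adjusted p = 0.00585). Dusp1, a phosphatase gene that switches off MAP kinases, had 0.38 ± 0.05 (adjusted p = 0.000602). The other 6 had slopes of 0.15 to 0.22, Srf among them at 0.22 ± 0.05 (adjusted p = 0.0452). Stxbp2 was the first with a negative slope (-0.15 ± 0.02, adjusted p = 0.00813), and Inha, Vegfa and H6pd, the next 3, did not pass. Predicted genes (symbols with Gm or Rik) were left out of this ranking. The slopes come from 27 samples, and all genes of a sample share its library and depth.

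Cyr61 shows the pattern in single libraries. It stood at 58.7 CPM in P4 WT replicate 2 and 79.1 CPM in P6 WT replicate 1, and at 0.639 to 6.66 CPM in the other WT libraries. P10 WT replicate 5 was among the latter, at 1.34 CPM, although its Fos was at 515 CPM. That library held 31.0 CPM of Dusp1, against 6.55 to 13.9 CPM in the other P10 WT libraries.

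Of 34 other immediate early genes tested, 21 were called higher in rd1 on average over ages and none lower, where 12.9% of all genes were called higher, with a median log2 fold change of 0.65. Arc, a neuronal activity gene, rose by 2.07 ± 0.25, Gadd45b, a stress gene, by 1.76 ± 0.26, Dusp1 by 1.09 ± 0.25 and Sik1, a kinase gene that CREB induces, by 0.89 ± 0.13. At P10, 12 of 34 were called higher (7.81% of all genes), with a median of 1.398. The counts were 3 at P2, 2 at P4 (1.61% of all genes), 0 at P6 (1.46%) and 1, Klf10, at P8 (1.18%), where at P2 2.81% of all genes were called in either direction. On the Fos slope, 4 of 34 passed (0.129% of all genes): Dusp1, Cyr61, Klf6 and Klf4.

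The P10 rise of Nr4a1 and Csrnp1 was shared by few of these. Npas4, a transcription factor gene induced by calcium in neurons and named here after its values were seen, stood at 16.2 and 23.8 CPM in P10 rd1 and at 0.460 to 0.801 CPM in P10 WT (5.16 ± 0.57). Sik1 stood at 40.2 and 47.6 CPM against 4.55 to 8.08 CPM (2.79 ± 0.26). Both genes also passed the test of age dependence (adjusted p = 0.00183 and 0.00228). Neither had a slope on Fos that passed (0.14 ± 0.11 and 0.09 ± 0.05).

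Heat shock genes rose at the same age. At P10, 8 of 13 were called higher (7.81% of all genes), with a median of 0.65. On average over ages 8 of 13 were (12.9% of all genes), with a median of 0.27, while none was called at P2, P4, P6 or P8 and none on the Fos slope. Hspa1a, an inducible Hsp70 chaperone gene, stood at 399 and 510.3 CPM in P10 rd1 and 4.80 to 10.8 CPM in P10 WT (5.90 ± 0.51). Its near-identical copy Hspa1b stood at 422 and 562 CPM against 4.70 to 9.03 CPM (6.16 ± 0.46), and the split of reads between the 2 is uncertain. Hsph1, a partner of Hsp70, stood at 239 and 200.1 CPM against 62.5 to 75.7 CPM (1.77 ± 0.18). Hspb1, a small heat shock protein gene, rose by 3.15 ± 0.55 from levels of at most 1.23 CPM.

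**Figure D5:**
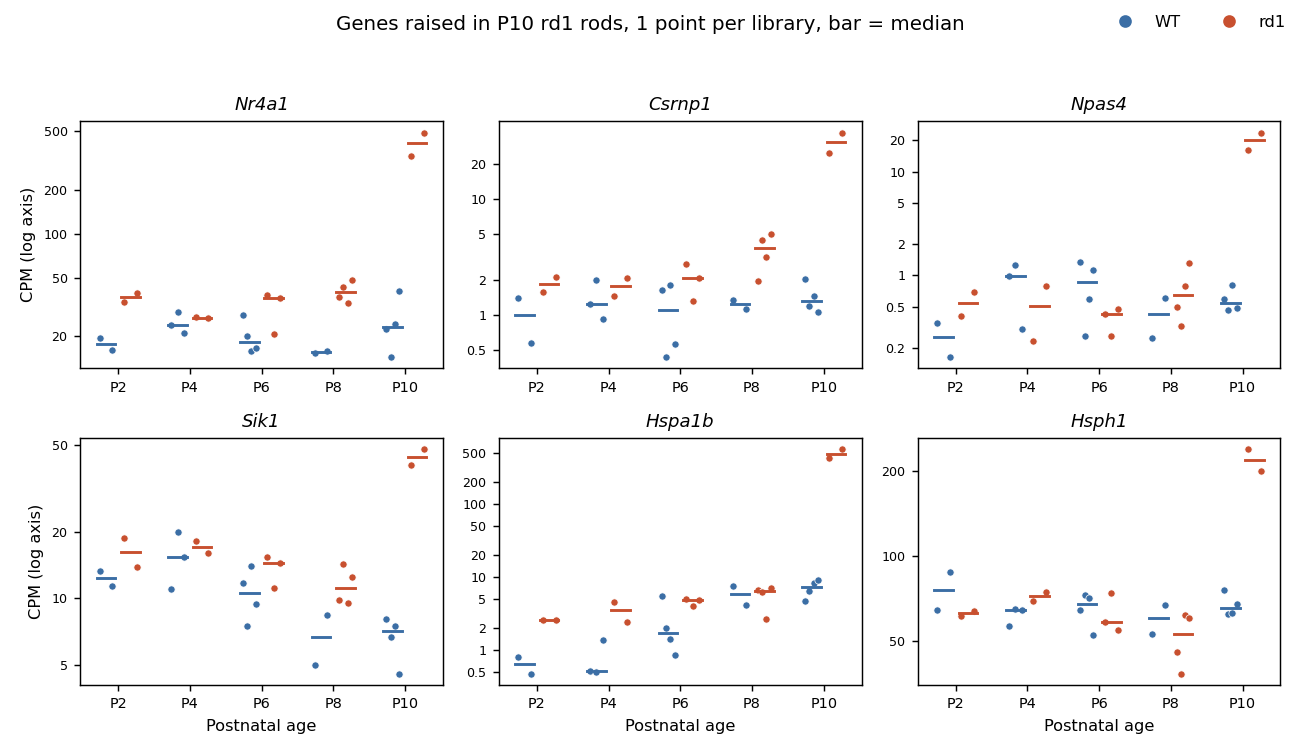
CPM (vertical, log axis) of Nr4a1, Csrnp1, Npas4, Sik1, Hspa1b and Hsph1 by postnatal age (horizontal), 1 point per library with a bar at the group median, WT in blue and rd1 in red. The 2 P10 rd1 libraries lie above all others for each gene, at 16.2 and 23.8 CPM for Npas4.

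Of 23 kinases and transcription factors that act on these genes, 2 were called higher and 3 lower on average over ages. The median was -0.06, and 12.9% of all genes were called higher and 10.6% lower. Both counts are near those shares. Srf rose by 1.00 ± 0.17 and Map2k2, a kinase of the ERK pathway, by 0.46 ± 0.09. Mapk14, the p38 kinase gene, fell by 0.34 on the log2 scale, and Mapk10, a JNK gene named here after its values were seen, fell by 0.82. Of 12 feedback inhibitors of MAP kinases, 2 rose (12.9% of all genes did): Dusp5, a phosphatase that acts on ERK (1.12 ± 0.17), and Spry2 (0.46 ± 0.13). Srf was the only 1 of these 35 genes with a slope on Fos that passed.

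The transcript table showed which forms made up the Fos and Fosb signal. The reference transcript Fos-001 took 76.8% to 97.8% of the transcript counts of Fos, with a median of 92.8%. For Fosb, an annotated form with a retained intron (Fosb-003) took 15.4% to 46.8%, with a median of 26.9%. These shares are estimates from overlapping models, and no test was made on them.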

How the data were processed

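RNA of sorted rods was sequenced (stranded poly(A) libraries, paired reads), per the labels' protocols. The submitters' processing notes name kallisto 0.42.4, edgeR 3.32.1 and the build GRCm38.p5. The authors deposited estimated counts (expected counts, not whole numbers) and CPM per gene and per transcript, and 1 further column of each table was not used. The deposited CPM equal the count over the library's total to within 5.8e-11. Depth was 11103460 to 21363610 counts per library.

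Counts were rounded and fitted with edgeR 4.0.16 (R 4.3.3, TMM, quasi-likelihood test) over all 10 groups, with limma 3.58.1 installed beside it. Of 45594 genes, 18608 passed the filter on low counts, and 17 residual degrees of freedom remained over 27 samples. Adjusted p-values are Benjamini-Hochberg over all genes, two-sided, with a threshold of 0.05. An SE is the log2 fold change over the square root of F. For the slope, log2(Fos CPM + 1) was added to the fit. CPM per kilobase sums each gene's transcript counts over annotated length. The code was tested on simulated data. Members and gene lists were chosen with earlier results of these data known. Genes outside the members were named by p on the Fos slope or on the average genotype difference (up to 4 per list, 8 and 4 for the slope). Alternatives were DESeq2 1.42.0, library totals, no filter, all 28 libraries apart, a replicate block, other Fos pseudocounts, each library left out and, chosen after the data were seen, offsets centred on GC. One gene of the upstream kinase list is not reported here.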

Additional observations from a re-analysis of the deposited data

Results flagged for a closer look

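The CPM of each member in the groups of 4 libraries gave 30 sets. In 11 of them the gap from 1 library to the nearest other, over the group's whole range, exceeded Dixon's 95% value. The members share these libraries and the sets are not independent, so this count cannot be set against the 1 in 20 that chance flags. In P6 WT replicate 1 the ratio was 0.887 for Fos, 0.915 for Fosb, 0.987 for Jun, 0.970 for Junb, 0.912 for Jund, 0.952 for Egr1 and 0.939 for Ier2. In P10 WT replicate 5 it was 0.943 for Fos, 0.994 for Fosb and 0.947 for Egr1. In P8 rd1 replicate 2 it was 0.881 for Jun, at 97.6 CPM beside 70.9 CPM in the next library.

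The genotype difference depended on age for Csrnp1 (edgeR adjusted p = 0.0113) and Nr4a1 (adjusted p = 0.000291). The difference at P10 exceeded the mean of the other ages by 3.59 for Csrnp1 and 3.30 for Nr4a1 on the log2 scale. At P8 it stood below the mean of the other ages, at -1.54 for Ier3, -2.66 for Jun, -3.17 for Junb and -2.37 for Jund.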

How the results depend on the processing

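No called result changed direction. The number of members called moved as follows. At P2 (2 called) it was 1 with DESeq2, 7 with no filter and 0 with GC-centred offsets. At P4 (1 called) it was 4 with no filter and 0 with the replicate block. At P6 (0 called) it was 1 with no filter and 1 with all 28 libraries kept apart. For the dependence on age (2 called) it was 4 with DESeq2, 7 with no filter and 1 with the block. For age in WT (3 called) it was 5 with no filter and 0 with the block. For P8 against the other ages (4 called) it was 1 with the block. On the Fos slope (3 called) it was 0 in rd1 libraries alone. At equal Fos (3 called) it was 1 with the block and 1 without the 2 libraries of most extreme Fos.

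Leaving out each library gave 0 to 4 members at P2, 0 to 4 at P4, 0 to 5 at P6, 0 to 2 at P8, 4 to 9 at P10 and 7 to 9 on average. It gave 1 to 7 for the dependence on age, 1 to 5 for age in WT, 2 for age in rd1, 0 to 5 for P8 and 2 for P10 against the other ages, 2 to 4 for the slope and 1 to 5 at equal Fos.

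Over all genes, DESeq2 called 826 at P2 (edgeR 522), 901 at P4 (549), 804 at P6 (487), 1033 at P8 (688), 1177 for the dependence on age (190), 279 for P10 against the other ages (82) and 75 on the slope (26). DESeq2 gave no adjusted p for Fos, Fosb and Junb outside the fits with Fos, so they are in none of its counts there. All 28 libraries apart gave 1284 genes at P6 and 321 for the dependence on age. No filter gave 936 there and 190 for P10 against the other ages. The replicate block gave 83 for the dependence on age, 833 for P8 against the other ages (1788 without it) and 119 on the slope. The slope called 3 genes in WT alone, 0 in rd1 alone and 208 without the 2 libraries of most extreme Fos. The causes were not tested.

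The deviations of same-numbered libraries from their group means had correlations of -0.238 to 0.138 (9 pairs). In a group of 2 libraries the 2 deviations mirror each other, so these values cannot decide whether the numbers pair the samples.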
